A study of Ovis aries with 6 samples.

Results

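Actins are the proteins that polymerise into the filaments of every animal cell, and the genes described here are the 6 actin genes ACTA1, ACTC1, ACTA2, ACTG2, ACTB and ACTG1 and 4 genes of small actin-binding proteins, PFN1, TMSB10, CFL1 and CFL2. They were chosen by name as 10 of the 23144 rows of the count table. Of these, 9 were matched by their own symbols, whereas ACTG1 was matched through its NCBI gene ID to the row LOC443340, whose listed protein match is ACTG1. The muscle was the longissimus dorsi of 6 female sheep at 1 year of age, kept in 1 environment with free access to feed. No treatment is described, and the study weighed its animals after a fast, before slaughter. There was 1 poly(A) RNA library per animal, read on an Ion Proton instrument. Of the sheep, 3 belonged to the Qianhua Mutton Merino (QHMM), a breed developed for meat and wool, and 3 to the Small Tail Han (STH), a traditional local breed, and all comparisons are STH vs. QHMM, so that an up-regulated gene was higher in STH.

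In striated muscle, alpha-actin forms the thin filament along which myosin heads pull, and its skeletal form ACTA1 replaces the cardiac form ACTC1 as skeletal muscle matures. The smooth muscle actins ACTA2 and ACTG2 and the cytoplasmic actins ACTB and ACTG1 come in a whole muscle sample mainly from vessels, connective tissue and other non-fibre cells, and ACTB is a common reference gene in quantitative RT-PCR. Profilin and thymosin bind actin monomers, and cofilins sever filaments so that their subunits can be used again.

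Library totals on genes ran from 10982191 to 14334544 reads. TMM factors, which correct library totals for composition, ran from 0.852 to 1.20, and values called normalized counts were scaled by them. Spearman correlations across genes lay between 0.955 and 0.960 for libraries of 1 breed and between 0.909 and 0.951 for libraries of different breeds. Skeletal muscle markers were abundant in every library, with CKM at 404317 to 734637 counts, although TNNT3 was listed at 0 in all 6. Calls required a change of over 1.5-fold in either direction at an FDR below 0.05, the cut-offs used by the authors. By this rule 432 of 12506 tested genes were called (3.45%), with 203 up-regulated in STH (1.62%) and 229 down-regulated (1.83%). The same thresholds applied by limma-trend to log2(RPKM + 1) gave 212 up-regulated and 134 down-regulated genes, with the median of all genes at a log2 fold change of 0.12.

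Among the 10 genes only ACTC1 was called, and it was up-regulated in STH. All 10 passed the filter for low counts, 1 had an unadjusted p below 0.05 against 19.2% of the tested genes, and 1 had breeds whose normalized counts did not overlap, against 24.7% of the tested genes. The log2 fold changes of the other 9 lay between -0.33 and 0.20 with FDR of 0.58 to 0.954 in edgeR's quasi-likelihood test. Their 95% intervals together reached from -1.19 to 1.04, and each of the 9 passed a 1.5-fold change on at least 1 side, so that a difference of that size lay within the interval. Over all 10 genes the median log2 fold change was -0.10, beside 0.02 over the tested genes, with 7 genes lower and 3 higher in STH.

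**Figure D1:**
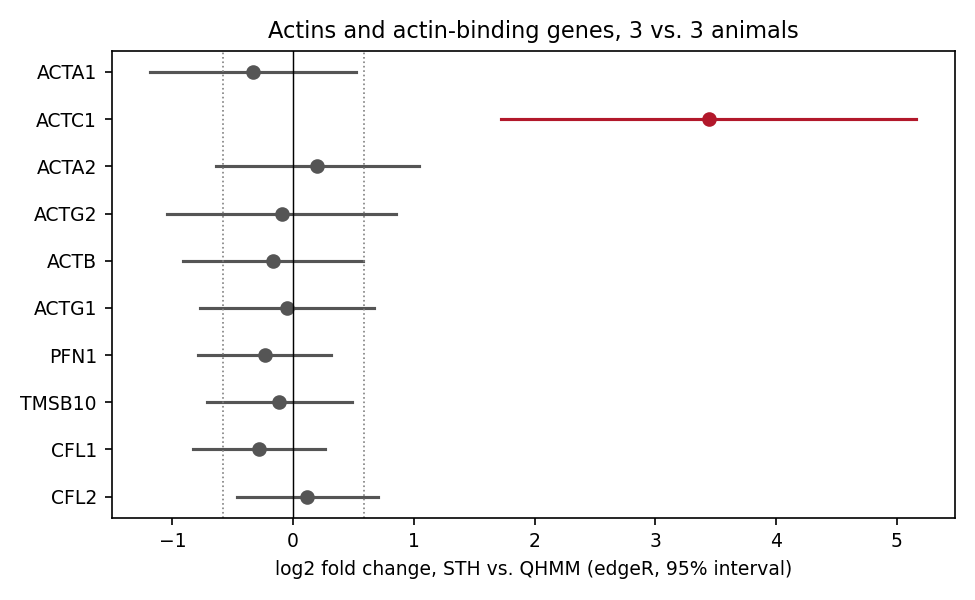
Log2 fold change of STH vs. QHMM (horizontal axis, edgeR on counts) for the 10 genes (vertical axis), with points at the estimate, bars for the 95% interval, dotted lines at a 1.5-fold change in either direction and the called gene in red. ACTC1 lay at 3.44 with an interval of 1.72 to 5.16, and the intervals of the other 9 genes crossed 0.

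ACTA1, the skeletal alpha-actin of the thin filament, took a large part of each library. Of all gene counts in QHMM replicates 1 to 3 it held 8.81%, 9.71% and 8.64%, and of those in STH replicates 1 to 3 it held 5.02%, 7.13% and 10.2%. It was the gene with the most counts in 5 libraries and came behind the fast myosin heavy chain OMYHC2X in STH replicate 1. The STH animals thus held both the lowest and the highest share, and the QHMM values lay between them. The mean share was 9.05% ± 0.574 in QHMM and 7.45% ± 2.61 in STH (SD, n = 3 each), a difference of -1.60 percentage points with an exact permutation p of 0.4 (two-sided). With 3 animals against 3, the smallest p this test allows is 0.1. After normalization ACTA1 had 1127081, 1475268 and 1086639 counts in QHMM and 542814, 836405 and 1549146 in STH, a log2 fold change of -0.33 (SE 0.39, FDR 0.689). This value was -0.06 without STH replicate 1 and -0.83 without STH replicate 3, and the difference in share was then -0.39 and -2.98 percentage points.

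Together the 10 genes took 9.07%, 9.88% and 8.78% of the counts in QHMM and 5.38%, 7.31% and 10.5% in STH. ACTA1 alone made up 93.3% to 98.5% of that sum. The other 9 genes together amounted to 0.133% to 0.359% of a library, with the lowest value in QHMM replicate 3 and the highest in STH replicate 1. For the sum over the 10 genes the breeds differed by -1.52 percentage points (exact permutation p of 0.4, two-sided), or by -0.35 without STH replicate 1 and -2.90 without STH replicate 3, and over the family of 11 share tests the adjusted p was at least 0.978 for every gene and for the sum. The 95% Wilson interval of the ACTA1 share reached at most 0.0161 percentage points to either side. For ACTG2, with 35 to 153 reads per library, the intervals were wide relative to its share, as in STH replicate 1 (0.000786%, interval 0.000648% to 0.000953%). These intervals cover counting error only, since the reads carry no molecular identifiers.

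**Figure D2:**
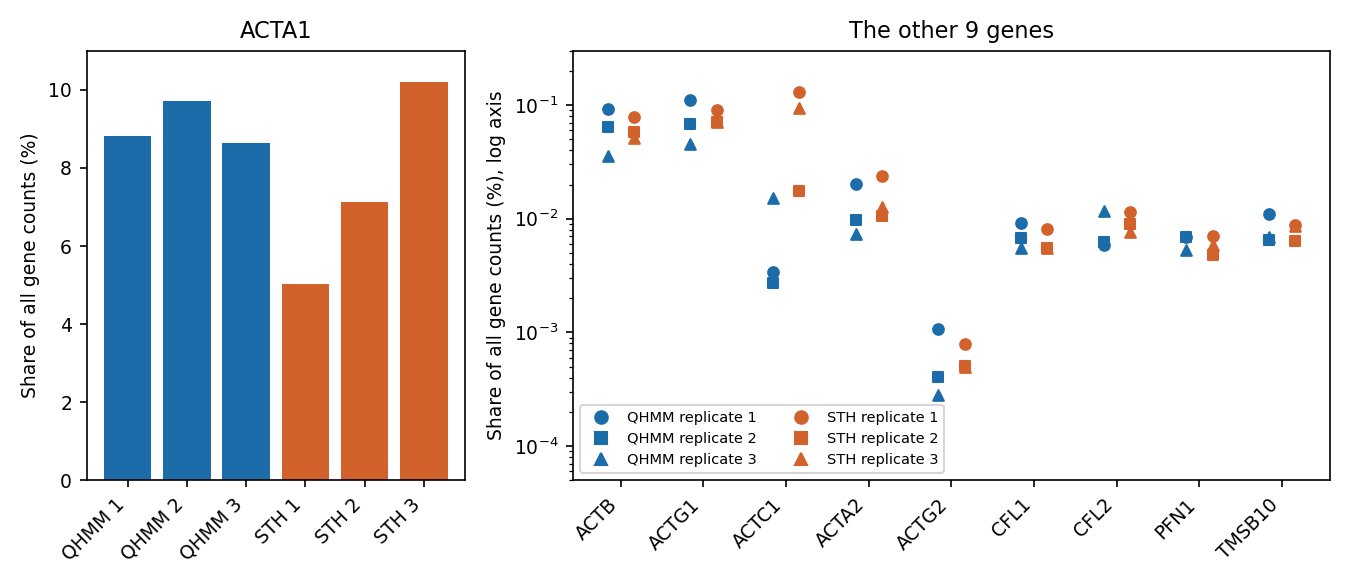
Share of all gene counts (percent) in each library, with ACTA1 as bars on a linear axis from 0 and the other 9 genes as points on a log axis, QHMM in blue and STH in orange, and 1 symbol per replicate. ACTA1 took 5.02% to 10.2%, while none of the other 9 genes passed 0.129% in any library.

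ACTC1, the alpha-actin of the heart and of immature skeletal muscle, was the member that differed most between the breeds. The QHMM replicates 1 to 3 had 433, 417 and 1932 normalized counts of it, and the STH replicates 1 to 3 had 13979, 2044 and 14231. Each STH library stood above each QHMM library, but QHMM replicate 3 and STH replicate 2 were close to each other, and the contrast came from 2 low QHMM animals and 2 high STH animals. The means were 927 ± 870 and 10085 ± 6965 (SD, n = 3 each), with a log2 fold change of 3.44 (SE 0.78, 95% interval 1.72 to 5.16, FDR 0.0411 in edgeR). The call was lost when QHMM replicate 1, QHMM replicate 2, STH replicate 1 or STH replicate 3 was left out (FDR 0.116, 0.124, 0.0571 and 0.0762), and log2 fold changes without 1 library ran from 3.08 to 4.57. Leaving out QHMM replicate 3 or STH replicate 2, the pair of libraries with similar levels, gave 4.57 and 3.91, both called.

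Within the striated actins, ACTC1 accounted for 0.0456%, 0.0335% and 0.211% of the summed RPKM of ACTA1 and ACTC1 in QHMM and for 2.97%, 0.290% and 1.08% in STH. RPKM is the read count divided by gene length and by the counted reads of the library, so these shares compare the genes per length. ACTA1 was the dominant striated actin in each of the 6 animals. As a ratio of counts within a library, which does not depend on scaling between libraries, ACTC1 to ACTA1 was 14.4-fold higher in STH (3.85 on the log2 scale), without overlap between breeds. The log2 value was 3.04 without STH replicate 1, 4.66 without QHMM replicate 3 and 4.73 without STH replicate 2. Its exact permutation p was 0.1 (two-sided), the smallest these 6 libraries allow, and 0.6 after adjustment over 6 ratios.

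Most markers of heart muscle had few or no counts. The natriuretic peptide genes NPPA and NPPB had 0 counts in all 6 libraries, which allows a share of up to 2.73e-05% in the shallowest, and the atrial light chain MYL7 had at most 1 count. RYR2, the cardiac ryanodine receptor, had 2 to 21 counts, and TNNI3, cardiac troponin I, had 25 to 51. Only 2 of the 6 cardiac markers, MYH6 and TNNI3, had enough counts to be tested. MYH6, a cardiac alpha-myosin, was called in the direction opposite to ACTC1, with 15759, 11208 and 11571 normalized counts in QHMM and 4810, 4606 and 4241 in STH (log2 fold change -1.50, SE 0.25, FDR 0.0135). The summed level of the 6 cardiac markers was 740 to 1236 CPM (counts scaled to the library total) in QHMM and 282 to 449 in STH, nearly all of it MYH6.

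The smooth muscle actins did not separate the breeds. ACTA2, the alpha-actin of vessel walls, had normalized counts of 2611, 1468 and 914 in QHMM and 2550, 1249 and 1942 in STH (log2 fold change 0.20, SE 0.38, FDR 0.822). ACTG2, the gamma-actin of visceral smooth muscle, was the rarest of the 10 genes, with 137, 62.0 and 35.5 in QHMM and 85.0, 59.8 and 75.1 in STH (log2 fold change -0.10, SE 0.43, FDR 0.933). In both genes the breeds overlapped, QHMM replicate 1 was highest and QHMM replicate 3 lowest. The sign of ACTA2 turned to -0.09 without QHMM replicate 3 and -0.08 without STH replicate 1, and that of ACTG2 to 0.57 without QHMM replicate 1, 0.01 without STH replicate 2 and 0.15 on RPKM. The ratio of ACTG2 to ACTA2 counts varied little, from 0.0333 to 0.0523, and differed by -0.16 on the log2 scale (exact permutation p of 0.4, two-sided).

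As a sum, but not gene by gene, smooth muscle markers were highest in the same animals as ACTA2. The summed level of 7 smooth muscle markers (MYH11, TAGLN, CNN1, SMTN, MYLK, CALD1 and MYL9) was 579 CPM in QHMM replicate 1 and 545 in STH replicate 1, against 236 to 336 in the other 4 libraries. MYH11, the smooth muscle myosin, had 2907 and 2501 counts in those libraries and 755 to 1238 in the others. SMTN, smoothelin, did not follow this order, with 1364, 661 and 1243 counts in QHMM and 991, 623 and 688 in STH, and the sum was lowest in QHMM replicate 2 while ACTA2 was lowest in QHMM replicate 3. TPM2, the 8th gene of the list, is also a gene of muscle fibres and with it the sum was 11119 to 15060 in QHMM and 7596 to 13986 in STH. None of the 8 was called, against 3.45% of all tested genes. More smooth muscle in a sample and more ACTA2 RNA per cell cannot be told apart in whole tissue, and the part of these markers in the ACTA2 values was not tested.

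ACTB and ACTG1, the cytoplasmic actins, varied together over the libraries. ACTB had 11844, 9637 and 4458 normalized counts in QHMM and 8508, 6854 and 7711 in STH, and ACTG1 had 14072, 10243 and 5657 in QHMM and 9830, 8293 and 10821 in STH. For both genes QHMM replicate 1 was highest and QHMM replicate 3 lowest, and the 3 STH libraries lay between these extremes. The log2 fold change was -0.17 for ACTB (SE 0.34, 95% interval -0.91 to 0.57, FDR 0.833) and -0.05 for ACTG1 (SE 0.33, 95% interval -0.77 to 0.67, FDR 0.954). Neither sign was stable, since without QHMM replicate 1 the values became 0.10 and 0.26, and on RPKM they were 0.05 and 0.15, where the median of all genes was 0.12.

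ACTG1 outnumbered ACTB in reads in each library, with a count ratio of 1.06 to 1.40, whereas per length ACTB was higher in each library, with an RPKM ratio of ACTG1 to ACTB of 0.720 to 0.951. The lengths behind the RPKM values were 1952 bases for ACTG1 and 1323 for ACTB, so the order of these genes depends on the scale. The log2 ratio of their counts differed by 0.10 between breeds (exact permutation p of 0.5, two-sided). Its SD over the 6 libraries was 0.135, against 0.481 for log2 normalized counts of ACTB itself. Among 7129 genes with a mean of at least 100 normalized counts, ACTG1 was the 2nd most similar to ACTB by this SD, after JOSD1 (0.104) and before EGFL7 (0.145), LOC101102278 (0.155), a row whose listed protein match is ACTB itself, and JMJD6 (0.159). CFL1 followed at rank 25 of those genes, with 0.252, and ACTA1 was at rank 5254, with 0.711. The same measure around ACTA1 gave GSTZ1 (0.144), WFDC1 (0.150), TNNI2 (0.16), a fast-fibre troponin I, SNX15 (0.174) and PGAM2 (0.189), a muscle glycolytic enzyme, with ACTB at rank 4515.

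The genes of the monomer-binding and severing proteins had normalized counts of a similar order of magnitude and did not differ between breeds in a detectable way. PFN1, profilin, which charges actin monomers with ATP and delivers them to growing ends, had 891, 1045 and 665 normalized counts in QHMM and 762, 563 and 884 in STH (log2 fold change -0.24, SE 0.25, FDR 0.657). TMSB10, a thymosin that sequesters monomers, had 1397, 984 and 861 in QHMM and 947, 749 and 1302 in STH (log2 fold change -0.11, SE 0.27, FDR 0.865). The breeds overlapped in both genes, and STH replicate 2 held the lowest value of each.

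CFL1, the cofilin of non-muscle cells, and CFL2, the muscle cofilin, ran in opposite directions across the QHMM animals. CFL1 had 1172, 1034 and 689 normalized counts in QHMM and 883, 652 and 846 in STH (log2 fold change -0.28, SE 0.25, FDR 0.58). CFL2 had 753, 950 and 1483 in QHMM and 1235, 1064 and 1153 in STH (log2 fold change 0.12, SE 0.26, FDR 0.858). The count ratio of CFL1 to CFL2 ran from 1.56 and 1.09 in QHMM replicates 1 and 2 down to 0.465 in QHMM replicate 3, whereas the STH animals lay close together at 0.715, 0.612 and 0.734. Per length CFL1 was higher in each library, with an RPKM ratio of 2.69 to 9.03, the lengths being 511 bases for CFL1 and 2962 for CFL2. The breeds overlapped, and the difference of -0.43 on the log2 scale had an exact permutation p of 0.5 (two-sided). It was -0.05 without QHMM replicate 1 and -0.93 without QHMM replicate 3. Count ratios of PFN1 to CFL1 (0.760 to 1.05) and of TMSB10 to ACTB (0.102 to 0.193) differed by 0.02 and -0.06 on the log2 scale, with exact permutation p of 0.9 and 0.8.

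Per length, the 10 genes spanned a mean RPKM of 4.46 ± 2.16 for ACTG2 to 54473 ± 12571 for ACTA1 (SD, n = 6). ACTB (478 ± 153) and ACTG1 (389 ± 114) came next, ACTB above ACTG1 in 6 of 6 libraries although their ranges overlapped. ACTC1 followed in the mean (342 ± 424), but it was below ACTG1 in 4 of 6 libraries and below TMSB10 (134 ± 29.8) in 2 of 6. CFL1 (133 ± 30.6) could not be ranked against TMSB10, each being higher in 3 of 6 libraries, and it was above ACTA2 in 5 of 6. ACTA2 (101 ± 46.3) and PFN1 (91.9 ± 14.5) also overlapped, and CFL2 (29.3 ± 8.58) lay below all of these and above ACTG2 in each library.

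Within QHMM the animals differed from each other in the same way for several members. QHMM replicate 1 had the highest normalized count of 6 of the 10 genes and QHMM replicate 3 the lowest of 4, while STH replicate 3 had the highest of 2. ACTA1 and CFL2 departed from the pattern of the cytoplasmic and smooth muscle actins, with the lowest value of ACTA1 in STH replicate 1 and the highest of CFL2 in QHMM replicate 3.

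**Figure D3:**
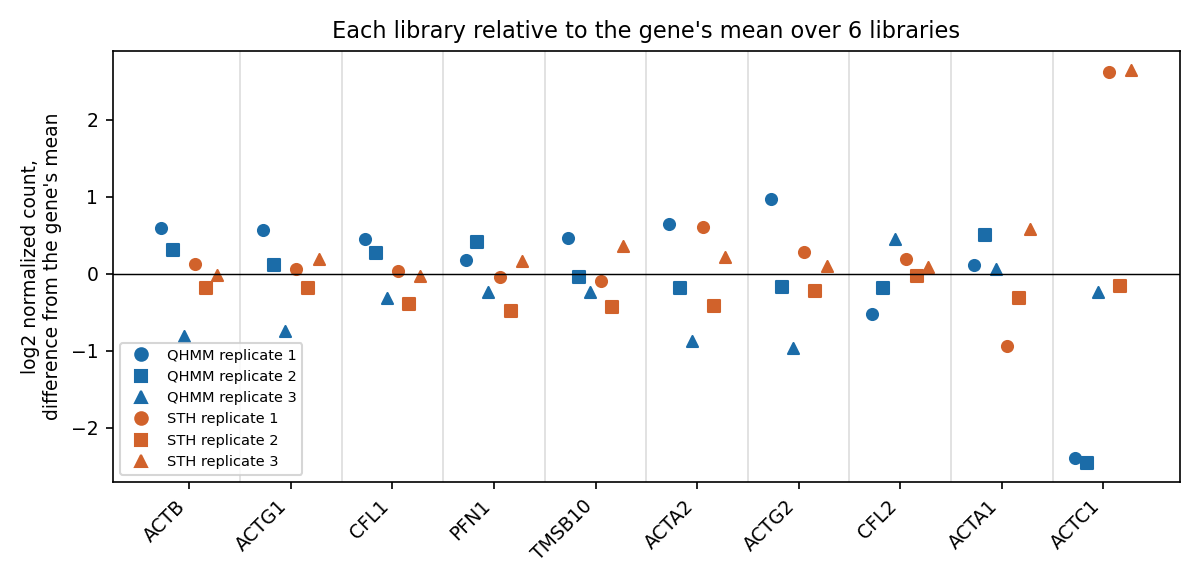
Log2 normalized count of each of the 10 genes in each library as its difference from the mean of that gene over the 6 libraries (vertical axis, log2 units), QHMM in blue and STH in orange, with 1 symbol per replicate. QHMM replicate 1 lay highest and QHMM replicate 3 lowest for ACTB, ACTG1, ACTA2 and ACTG2, and ACTC1 had the widest spread, from -2.45 to 2.64.

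Further rows of the count table list the protein of a member as their match, and only reads with a unique position were counted, so reads could be split between a member and such a row where their sequences are alike, which was not tested. There were 4 such rows, called copies here. The ACTB copy LOC101102278 held 4.51% to 6.09% of the ACTB count, the PFN1 copy LOC101111804 25.98% to 34.0% of the PFN1 count, and the TMSB10 copy LOC101118400 83.8% to 118% of the TMSB10 count, whereas the ACTA2 copy LOC101118066 had 0 counts in all 6 libraries. Values of TMSB10 and PFN1 may be uncertain as levels for this reason. With each copy added to its gene the log2 fold changes were -0.16 for ACTB, -0.21 for PFN1 and -0.11 for TMSB10, and none of these genes was called.

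Genes that act on actin beyond the 10 members were taken from 7 lists, of monomer-binding proteins, cofilin partners and kinases, capping and severing proteins, Arp2/3 nucleation, formins, crosslinkers and the serum response factor axis. Of 89 genes listed 81 were tested, and 5 of them were called (6.17%, against 3.45% of all tested genes), 3 up-regulated and 2 down-regulated, with a median log2 fold change of -0.04. TWF2, a twinfilin that binds monomers, was the 1 called of 6 monomer-binding genes tested. It had 2065, 1723 and 1328 normalized counts in QHMM and 2779, 6849 and 5508 in STH (log2 fold change 1.56, SE 0.34, FDR 0.0359). PDXP, a phosphatase that acts on cofilin, was the 1 called of 16 cofilin partners and kinases, with 160, 170 and 228 in QHMM and 77.6, 45.9 and 59.4 in STH (log2 fold change -1.60, SE 0.28, FDR 0.0179). Breeds did not overlap in either gene, against 24.7% of all tested genes without overlap. With 3 animals per breed a call makes overlap unlikely, so this adds little to the calls.

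Of 15 capping and severing genes 1 was called, LMOD2, a leiomodin of the thin filament's pointed end, with 6439, 3899 and 6579 normalized counts in QHMM and 11653, 11753 and 14584 in STH (log2 fold change 1.17, SE 0.28, FDR 0.0475). FHOD3, a formin of the sarcomere, was the 1 called of 12 formins and Ena/VASP genes, with 519, 444 and 550 in QHMM and 166, 127 and 229 in STH (log2 fold change -1.54, SE 0.25, FDR 0.0135). FLNC, the filamin of the muscle Z-disc, was the 1 called of 14 crosslinkers, with 65656, 67306 and 35776 in QHMM and 176190, 105614 and 358512 in STH (log2 fold change 1.92, SE 0.45, FDR 0.0457). All 3 genes kept the breeds apart, which a call with 3 animals per breed largely implies. None of 14 Arp2/3 genes was called by edgeR, with 1 at an unadjusted p below 0.05, and the smallest p belonged to CTTN, cortactin (log2 fold change 0.64, FDR 0.110), and ACTR2, the Arp2 subunit (0.50, FDR 0.263). None of 4 genes of the serum response factor axis was called, with 1 at an unadjusted p below 0.05, MKL1, a coactivator of actin gene transcription (-1.15, FDR 0.0823), and SRF itself was at -0.24 (FDR 0.655).

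These 5 calls were unequal in how far they rested on single animals. FHOD3 was called in 6 of 6 fits that left out 1 library, with FDR up to 0.0490. PDXP was called in 5 of 6 and lost without QHMM replicate 3 (FDR 0.0661). FLNC was called in 2 of 6, without STH replicate 1 (0.0463) or STH replicate 2 (0.0369), and TWF2 in 1 of 6, without STH replicate 1 (0.00856), while LMOD2 was called in 0 of 6 (FDR 0.0608 to 0.141).

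ACTB was the reference gene of the qRT-PCR in the study, and how far its transcript level varied between the animals can be read from the libraries. The highest normalized count was 2.66 times the lowest, and both belonged to QHMM animals. Its SD of log2 normalized counts over the 6 libraries was 0.481, larger than that of 62.5% of the tested genes, whose median SD was 0.404, and larger than that of 74.5% of the 7130 genes with a mean of at least 100 normalized counts. Among 20 tested genes of a panel of common reference genes, 16 had a smaller SD, and the median of the panel was 0.315. Within breeds the pooled SD of ACTB was 0.537, at rank 19 of the 20.

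This rank depended on 1 animal. Without QHMM replicate 3 the SD of ACTB was 0.304, at rank 9 of 20 and larger than that of 31.0% of the tested genes. Leaving out any other library gave an SD of 0.427 to 0.538 and ranks 15 to 18.

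RPS15, a protein of the small ribosomal subunit, had the lowest SD of the panel (0.112), with 1239, 1387 and 1290 normalized counts in QHMM and 1293, 1406 and 1536 in STH. RPS18 (0.185) and RPLP0 (0.199), also ribosomal protein genes, followed, and GAPDH, another common reference and an abundant muscle enzyme, was at 0.317. The 95% interval of the log2 fold change stayed within a 1.5-fold change to either side for 1 of 20 genes, RPS15 (-0.33 to 0.56), whereas that of ACTB passed it on the lower side (-0.91 to 0.57). PGK1, a glycolytic enzyme, and TFRC, the transferrin receptor, had larger SDs than ACTB (0.937 and 1.60) and were both called, at log2 fold changes of -1.52 (FDR 0.0302) and -2.28 (FDR 0.0256). Without 1 library, PGK1 was called in 1 of 6 fits (FDR 0.0236 to 0.0967) and TFRC in 3 of 6 (FDR 0.00961 to 0.0720).

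**Figure D4:**
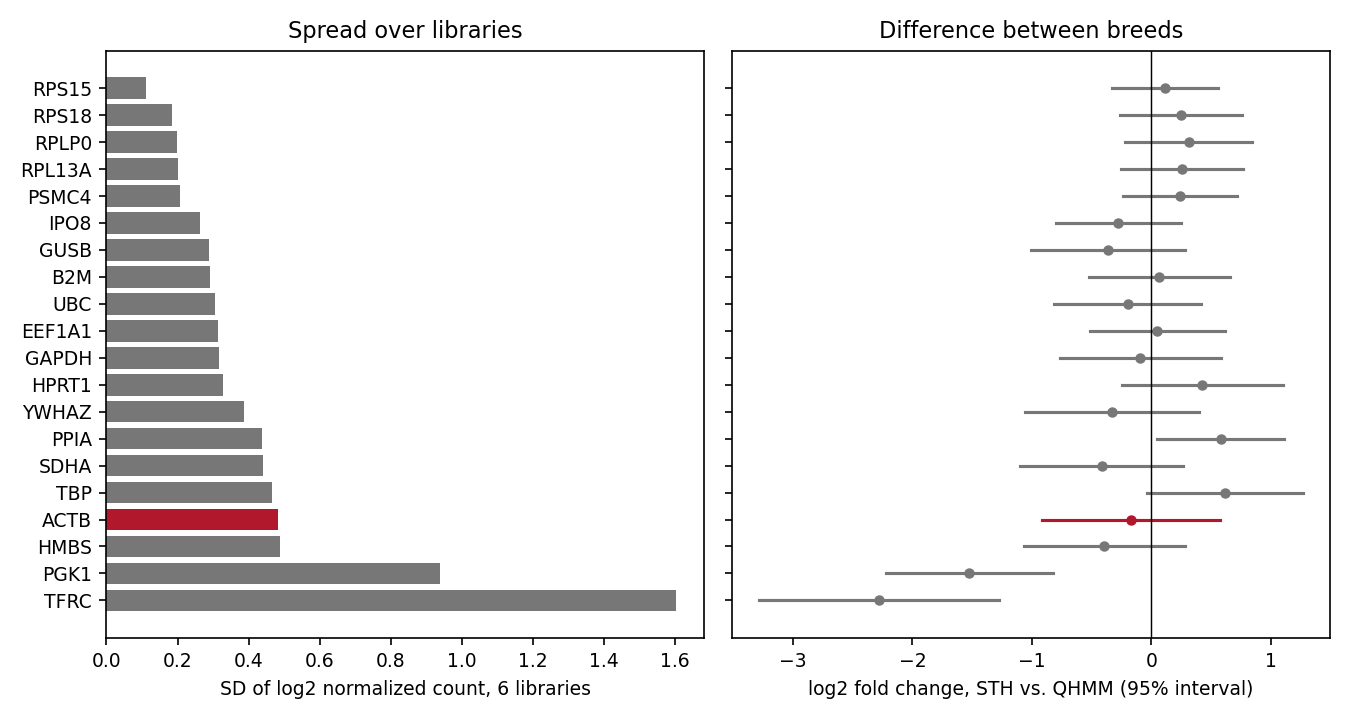
For 20 reference genes, the SD of log2 normalized counts over the 6 libraries (left, bars from 0) and the log2 fold change of STH vs. QHMM with its 95% interval (right), with ACTB in red. ACTB ranked 17 of 20 by SD (0.481), while its fold change of -0.17 lay close to 0.

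Genes measured by qRT-PCR in the study had been chosen as differentially expressed in these libraries, so their values relative to ACTB are a description without a test. By the edgeR rule used here, only CBS, HMOX1, ZBTB16, SCARB1 and SDHC of these genes were called. With ACTB subtracted in each library, the 4 genes higher in STH (CBS, CCND3, HMOX1 and ZBTB16) and the 5 lower (MGST3, SCARB1, SMAD3, NMNAT3 and SDHC), 9 in all, kept their directions. Each log2 difference moved by 0.06, since the mean log2 level of ACTB was 0.06 lower in STH. The separation of animals was smaller. By TMM-normalized counts the breeds did not overlap in 9 of 9 genes, and relative to ACTB they did not overlap in 4 of 9, HMOX1, ZBTB16, SCARB1 and NMNAT3. The 9 of 9 was largely set by the choice of the genes from these libraries, and another scale could only lower it. Over all tested genes the breeds did not overlap in 24.7% by normalized counts, and the share relative to ACTB was not computed.

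The median within-breed SD of the 9 genes was 0.375 for log2 normalized counts and 0.648 relative to ACTB, and it was wider with ACTB in 8 of 9, all but HMOX1. The choice of these genes from the same libraries favours a small within-breed SD on normalized counts, so part of this widening is built in. The SD relative to ACTB was not computed over all tested genes. SDHC, a subunit of succinate dehydrogenase, shows the range, with log2 values relative to ACTB of -2.05, -1.23 and -0.23 in QHMM and -2.19, -2.09 and -2.01 in STH. QHMM replicate 1 came close to the STH animals there, and QHMM replicate 3 stood far above them. CCND3, cyclin D3, had -6.72, -6.08 and -5.15 in QHMM and -5.17, -5.13 and -4.89 in STH, where QHMM replicate 3 reached the level of the lowest STH animals.

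With ACTG1 in place of ACTB the breeds did not overlap in 7 of 9 genes, and with the geometric mean of the panel in 9 of 9. The panel includes PGK1 and TFRC, which were both called between the breeds. The limit from the choice of the 9 genes applies to these counts too. Relative to ACTB the count was 7 without QHMM replicate 1, 6 when QHMM replicate 3 or the 1st or 3rd STH replicate was left out, and 4 when the 2nd replicate of either breed was left out. A smaller group overlaps less readily, so a rise in this count is partly built in when a library is left out. The qRT-PCR measurements themselves were not analysed here.

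**Figure D5:**
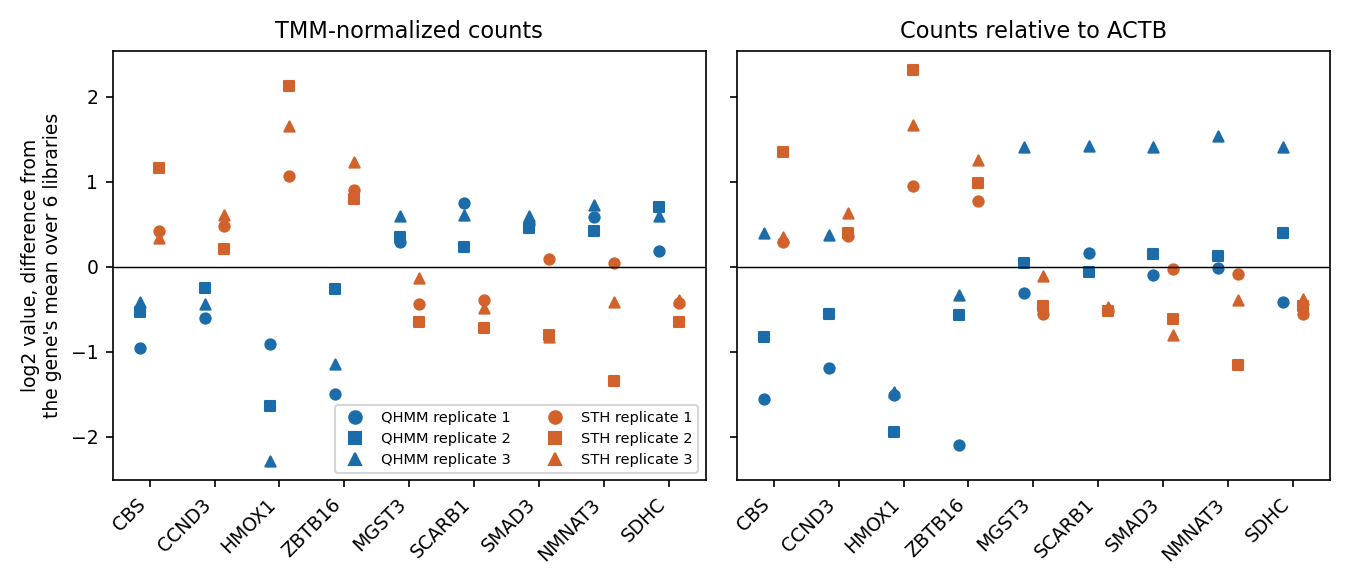
Log2 value of each of the 9 qRT-PCR genes in each library as its difference from the mean of that gene, from TMM-normalized counts (left) and from counts relative to ACTB (right), QHMM in blue and STH in orange, with 1 symbol per replicate. The breeds did not overlap in 9 of 9 genes on the left and in 4 of 9 on the right, where QHMM replicate 3 lay highest among the QHMM animals in each gene.

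Markers of other cell types differed between libraries beside the cytoplasmic actins. The summed level of 7 fibroblast markers was 2030 to 4186 CPM in QHMM and 930 to 2173 in STH, with 7 of 7 lower in STH and 0 called by edgeR. The share of all tested genes lower in STH was not computed, and their median log2 fold change was 0.02. Of all tested genes 3.45% were called, so 0 calls in lists this short say little about the markers. Leukocyte markers summed to 469 to 598 in QHMM and 212 to 519 in STH (11 tested, 0 called), and endothelial markers to 607 to 801 and 633 to 1034 (6 tested, 0 called, CLDN5 listed at 0). QHMM replicate 3, lowest for ACTB and ACTG1, had the highest fibroblast sum and the lowest leukocyte sum of its breed. Its endothelial sum (722) lay between those of QHMM replicates 2 (607) and 1 (801). CD74 made up most of the leukocyte counts, with 5640, 5878 and 3965 reads in QHMM, whereas C1QB had 457, 465 and 457. STH replicates 2 and 3 had lower leukocyte sums (357 and 212, against 469 in QHMM replicate 3). Their normalized ACTB counts were higher (6854 and 7711, against 4458). The part of these cells in the levels of ACTB, ACTG1, CFL1, PFN1 and TMSB10 was not tested, and fewer cells of a type cannot be told apart from less RNA per cell.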

How the data were processed

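Longissimus muscle RNA of 3 QHMM and 3 STH sheep was sequenced. The authors filtered the reads, mapped them to the sheep genome Oar 3.1, kept unique mapped reads and deposited raw counts per gene, and they also deposited RPKM values, the counts scaled by gene length and by the reads counted on genes. Aligner, counting program and annotation release are not given in the sources used here. Each gene length was the same in every library when recomputed from both tables, and 25 gene names of the count table were spelled otherwise in the RPKM table and have no RPKM here, none of them among the 10 genes. Genome positions and sequences were not used here.

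The deposited counts were tested in R 4.3.3 with edgeR 4.0.16 (TMM, filterByExpr, glmQLFit and glmQLFTest, breed as the only term). The FDR (Benjamini-Hochberg) covered 12506 genes, and calls required an FDR below 0.05 with a change of over 1.5-fold. EBSeq, the program of the study's methods, was not run here. The SE is the log2 fold change over the square root of F. Normalized counts give the means and SDs, with 0.5 added before log2. Shares and ratios within libraries were compared by exact permutation over the 6 libraries in Python 3.11.15 with SciPy 1.17.1, adjusted over 11 shares and 6 ratios. Each library came from 1 animal, so p-values rest on differences between animals. In edgeR the variance of each gene was also moderated by that of the other genes, whereas permutation p-values use only the 6 libraries.

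Named are all 10 genes, the reference panel (1 further gene of it is not reported here), the 9 qRT-PCR genes, from each actin list every called gene up to 4 or otherwise the 2 with the smallest p, and the 5 genes most like ACTB and ACTA1. OMYHC2X, MYH6 and other markers were named after their values were seen. The 10 genes and all lists were chosen with earlier results of these data known. In all, 9 alternatives with 6 libraries were fitted, among them DESeq2 1.42.0 and limma 3.58.1 (limma-trend on log2(RPKM + 1) and log2(RPKM + 0.1), for genes reaching an RPKM of 1 in 3 or more libraries), with 6 fits that left out 1 library each, and adding copies to their gene was chosen after seeing the data. The scripts were tested on simulated data.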

Additional observations from a re-analysis of the deposited data

How the results depend on the processing

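The direction and call state of 116 values that answer a comparison were the same as in the main setting over the alternatives tried, 25 moved and 9 reversed. ACTB is counted among these, with 4 reversals. Among the fold changes of the other 9 genes, 121 were the same, 17 reversed and 5 lost the call, all 5 of them fits of ACTC1. Depth limits ACTG2 most, at 35 to 153 reads per library. The cause was not tested for any of these changes.

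The number of called genes was 956 with DESeq2, 806 with no filter on low counts, 78 with limma-trend on log2(RPKM + 1) without a filter and 131 to 535 with 1 library left out, while the 10 members gave 1 call except for 0 with that unfiltered limma-trend (0 genes of the 10 at FDR below 0.05, ACTC1 at 0.141) and 0 to 1 with 1 library left out. Over 9 settings with all libraries the FDR of ACTC1 ran from 0.0018 to 0.141. The actin lists gave 12 calls with DESeq2, 8 without the filter on low counts, 3 without the 20 most abundant genes, 0 with limma-trend without a filter and 1 to 5 with 1 library left out. FLNC and ACTA1 are among the 20 most abundant genes, so neither could be called in the setting without them. The replicate block gave 3 calls in the actin lists (TWF2, LMOD2 and FLNC were lost and 1 other gene was called) and 457 calls over all genes. No pairing of the animals by replicate number is stated. The deviations of same-numbered libraries had correlations of 0.22, -0.03 and -0.12, and QHMM replicate 2 was closest to STH replicate 3 (0.27). With so few libraries these correlations cannot decide whether the numbers pair the animals. Under the replicate block the log2 fold changes of ACTG2 (0.073) and ACTG1 (0.031) reversed, and those of ACTB and ACTC1 were -0.07 and 3.36. On log2(RPKM + 1), log2(RPKM + 0.1) and unfiltered log2(RPKM + 1), ACTB reversed to 0.055, 0.055 and 0.055, ACTG1 to 0.15, 0.15 and 0.15 and ACTG2 to 0.15, 0.22 and 0.15, while the median of all genes was 0.12, 0.14 and 0.04. With 1 library left out, log2 fold changes ran from -0.48 to 0.10 for ACTB, -0.33 to 0.26 for ACTG1, -0.090 to 0.66 for ACTA2, -0.44 to 0.57 for ACTG2, -0.10 to 0.44 for CFL2 and -0.35 to 0.094 for TMSB10. The log2 ratios ran from -0.10 to 0.10 for PFN1 to CFL1, 0.015 to 0.16 for ACTG1 to ACTB, -0.30 to -0.037 for ACTG2 to ACTA2 and from -0.26 to 0.21 for TMSB10 to ACTB. The count of qRT-PCR genes without overlap was 7 with ACTG1 as the reference, 9 with the panel and 4 to 7 with 1 library left out.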
